A study of Schizosaccharomyces pombe with 8 samples.

Results

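The response of wild-type fission yeast to hydrogen peroxide was followed here over all measured genes, by comparing the 2 treated with the 2 untreated wild-type libraries, 4 of the 8 libraries sequenced. The cells were Schizosaccharomyces pombe strain 972, a prototroph of mating type h-, grown in rich YE5S medium at 30 °C to early log phase and sampled either untreated or after 30 min with 1 mM H2O2. The other 4 libraries came from RF14, also h-, in which the gene of DNA topoisomerase I is replaced by the kanMX6 cassette (Δtop1), untreated or treated in the same way, and they enter here through the filter on low counts, the estimate of spread, the check of the deleted gene and a comparison near the end. Poly(A) RNA was sequenced as single reads of 50 bases from 2 biological replicates a group, and the deposited values are normalized counts, the reads on a gene divided by the size factor of its library.

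Of the 5165 genes in the table, 5019 averaged 10 or more normalized counts across all 8 libraries and were tested, and 146 were not. The wild-type libraries held between 16724666 and 18396004 reads on genes, and 1 read was worth between 0.829 and 1.24 normalized counts. The log2 values of replicates correlated across genes with a Pearson coefficient of 0.984 untreated and 0.991 treated, and genes are not independent replicates. The gene top1 had 1967 and 2150 normalized counts in untreated and 2013 and 2513 in treated wild-type cells, against 244 to 309 in the Δtop1 libraries, so no library went against its strain label. The auxotrophic marker genes ura4, leu1, his3 and ade6 had at least 2755 normalized counts in each wild-type library. The h- mating-type gene mat1-Mc was read at 463 to 689 normalized counts. Other genes of M cells were lower in part, with mfm2 at 43.5 to 587 and mam2 at 27.3 to 93.6. The M-factor genes mfm1 and mfm3 were read at only 3.73 to 16.6 and 3.77 to 18.5. Map2 and map3, which encode the pheromone of P cells and a receptor specific to P cells, were also read, at 59.9 to 101 and 88.2 to 277, and map3 was lower in both treated libraries than in both untreated. The gene spo6, which acts late in meiosis, was read at 21.1 to 78.7 normalized counts. The meiosis genes rec8 and mei4 were read at 36.7 to 154 and 106 to 409, higher in both treated libraries than in both untreated.

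Peroxide is sensed in S. pombe by several relays. The MAP kinase Sty1, activated through the kinases Wis4, Win1 and Wis1, phosphorylates the bZIP transcription factor Atf1, which with its partner Pcr1 binds CRE motifs before genes of the core environmental stress response. The factor Pap1, of the AP-1 family, is oxidised by way of the peroxiredoxin Tpx1 and enters the nucleus to drive antioxidant and drug efflux genes, with the response regulator Prr1. Hsf1 drives heat shock genes. A common feature of yeast stress responses is that transcripts of growth, above all those for making ribosomes, decline while transcripts of protection rise.

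Of the 5019 genes tested, 613 rose (12.2%) and 569 fell (11.3%) with H2O2, taking an adjusted p under 0.1 in limma with at least a 2-fold change on the scale of log2(normalized count + 1). Folds below were taken on that scale, where low counts make a change look smaller than it is. The rises were larger than the falls, since 211 genes rose and 82 fell at least 4-fold, 98 rose and 14 fell at least 8-fold, and 18 rose but 1 fell at least 32-fold. In all 613 genes called up, both treated libraries lay above both untreated libraries, and in 568 of the 569 called down both lay below. The exception was mfm2, an M-factor pheromone gene, which had 587 and 111 normalized counts untreated and 121 and 43.5 treated, and whose log2 change went from -1.80 to -0.61, without a call, when the first untreated replicate was left out. Over all genes tested, 2051 were higher and 2042 lower in both treated libraries. The genes called up took 9.09 and 9.83% of the normalized counts of the untreated replicates and 30.4 and 29.4% of those of the treated replicates, and the genes called down went from 8.56 and 8.18% to 2.26 and 2.30%.

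These changes are relative to the scaling of the libraries, and no RNA standard added to the samples is described by which a change in total RNA could be read. With the deposited size factors the median log2 change of all genes was 0.00 with quartiles of -0.52 and 0.52. Scaled to the same total of counts instead, each log2 change was 0.37 lower, and 403 genes rose while 1062 fell. Scaled to the same upper quartile, each was 0.29 lower, with 445 up and 939 down. The share of calls that were rises was 51.9% as deposited, 27.5% with equal totals and 32.2% with equal upper quartiles. In bulk RNA, fewer cells of a kind and less RNA per cell cannot be told apart. The replicates are described as biological, but for any gene alone the smallest p that an exact permutation of 2 and 2 libraries allows is 0.333, and the adjusted p-values below rest on the spread shared across genes by limma.

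The largest rises were in genes of carbon metabolism, stress proteins of little known function and a small heat shock protein. SPBC24C6.09c, annotated as a phosphoketolase family protein, rose from 64.6 and 77.2 to 25915 and 16411 normalized counts, which is 288-fold (log2 8.17, standard error 0.26, adjusted p = 1e-07). The stress protein gene lsd90 rose from 229 and 250 to 68169 and 58046, and ddr48, named for DNA damage response, from 1082 and 794 to 123789 and 100760. Treated and untreated libraries that do not overlap were a condition for a gene to be among the 12 largest rises. SPACUNK4.17, an NAD-binding dehydrogenase, rose from 1194 and 1643 to 110612 and 102681. Among the 12 largest rises were also SPAC4H3.03c, a glucan 1,4-alpha-glucosidase (107-fold), inv1, the external invertase that splits sucrose (63.0-fold), ssd2, a succinate-semialdehyde dehydrogenase (84.8-fold), and SPAC513.02, of the phosphoglycerate mutase and 6-phosphofructo-2-kinase family (72.0-fold). SPCC794.04c, a transporter of unnamed substrate, rose 44.5-fold, and SPAC3G6.07 and SPBC3E7.17 are uncharacterized. SPBC3E7.17 had 2 reads in the untreated replicates together and 175 in the treated, a ratio of 115 with a 95% counting interval from 31.4 to 958.

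Transporters, cell wall enzymes and a regulator of sexual differentiation led the falls. The gene pho842, of an inorganic phosphate transporter, had 2954 and 4300 normalized counts untreated and 73.0 and 113 treated, 38.8-fold lower (log2 -5.28, standard error 0.30, adjusted p = 1.9e-06), the only fall past 32-fold. It was followed by tna1, a nicotinic acid transporter of the plasma membrane (243 and 263 untreated, 19.6 and 13.7 treated), and by gas1, whose product elongates 1,3-beta-glucan in the cell wall. In gas1 the 20630 and 23491 normalized counts of growing cells became 1713 and 1511 after H2O2. Of the other 9, ptr2, SPBC887.17, SPCC584.13 and isp5 are annotated as transporters, of peptides, of an unnamed substrate, of gamma-aminobutyric acid or polyamines, and of amino acids. The others were eng1, which cuts the septum between daughter cells, ste11, the master transcription factor of sexual differentiation, msa1, an RNA-binding protein, SPAC8E11.10, a sorbose reductase, and SPBPB7E8.01, uncharacterized.

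**Figure D1:**
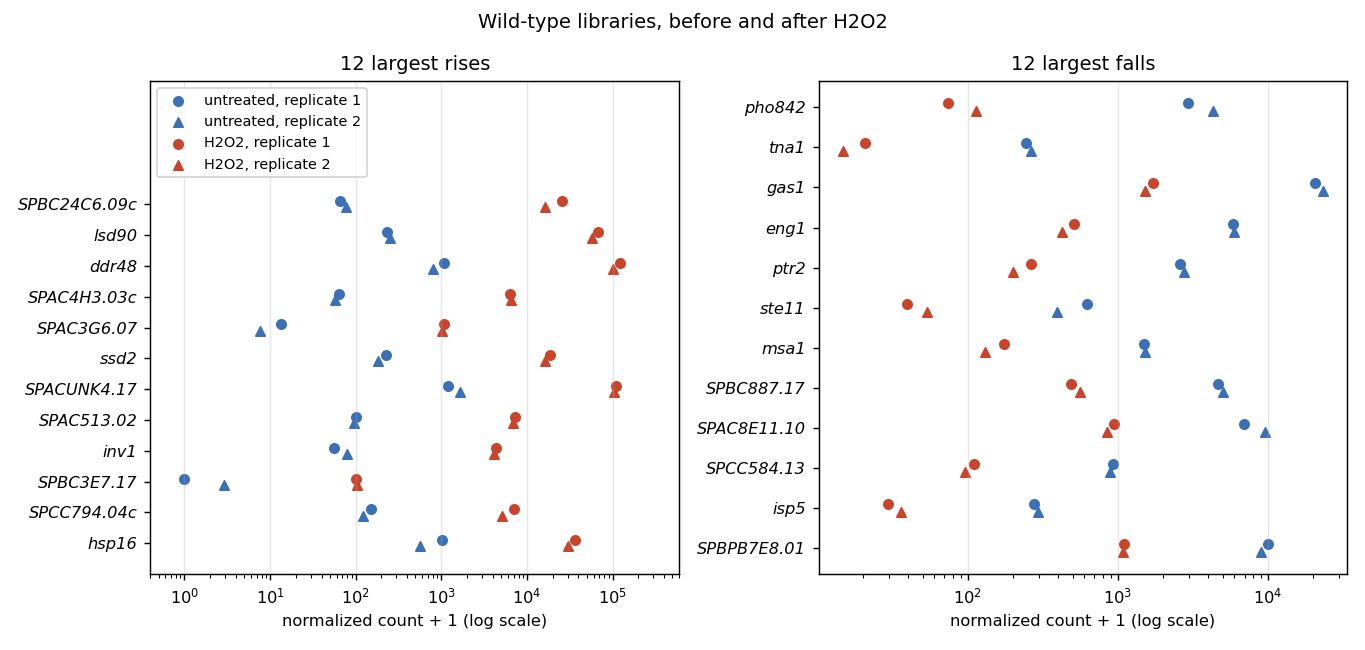
Normalized count + 1, on a log axis, of the 12 genes with the largest called rises (left) and falls (right), with a circle for replicate 1 and a triangle for replicate 2 of untreated (blue) and treated (red) wild-type cells. Only genes whose treated and untreated values did not overlap were eligible, so the gap in all 24 follows from the choice. Replicates are not equally close in all genes, and those of untreated hsp16 and treated SPBC24C6.09c lie apart although their counts are not the lowest.

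A motif search before the starts of genes was made because the promoter is where the relays named above meet their targets. The 250 bases before and 50 after the annotated gene start were read from ASM294v3 in RefSeq for 4981 tested genes, on both strands. The CRE core TGACGT was in 5.92% of all of them, in 18.3% of those of genes called up (111 of 607), in 30.9% of those up at least 8-fold (30 of 97), in 4.46% of those not called and in 2.48% of those called down. Read the other way, 37.6% of the 295 genes with the letters rose and 4.75% fell, against 10.6% and 11.7% of the 4686 without them. The AP-1 site TTAGTCA was in 4.48% of all promoters, in 4.78% of those of genes called up and in 4.61% of those called down. The heat shock element GAANNTTCNNGAA was in 24 promoters, of which 5 were of genes called up (20.8%) and 2 of genes called down (8.33%). Of the 4957 genes without it, 12.1% rose and 11.3% fell. A match is a description of the letters in a window and neighbouring genes can share a window.

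The stretches below are 30 bases each from before the annotated start of 8 genes called up with a CRE core, 5′ to 3′ on the strand of the gene, with the motif in capitals as TGACGT or its reverse complement ACGTCA. They are shown because the first bases of the capitals lie between 74 and 37 bases before the start in each of the 8, within the 100 bases in which the letters were most common before genes called up. Where a gene had more than 1 match, as atf1, gpd1, srk1 and rsv2 did, the match nearest the start was taken, which narrows that range. The letters were also before pho84, which was called down, and in 4 of 10 core histone promoters (40%), although no core histone gene was called. The genes encode a catalase (ctt1), Atf1 itself, glycerol-3-phosphate dehydrogenases (gpd1, gut2), a trehalase (ntp1), a kinase activated by Sty1 (srk1), a zinc finger transcription factor (rsv2) and a glutathione S-transferase (gst3).
ctt1, chrIII:58875-58904, minus strand: attgtgcaaataTGACGTtggtaattctac
atf1, chrII:1546155-1546184, plus strand: agtgatgcaatgACGTCAtctgtttgaaac
gpd1, chrII:4035480-4035509, plus strand: tgtagtgtttttACGTCAtttggtacggct
ntp1, chrII:206500-206529, plus strand: gtcaggtagactACGTCAttgagtaacgaa
gut2, chrIII:1843309-1843338, minus strand: gaaacaaacccaACGTCActgttgacatgt
srk1, chrIII:1301888-1301917, plus strand: cgttaacgaaggACGTCAaagtaggcaaat
rsv2, chrII:3532871-3532900, plus strand: atcagacgcttgACGTCAttctttatatat
gst3, chrI:3116927-3116956, minus strand: tatttcggtgacTGACGTgcatatgaggtg

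Other stretches of the same length carry the AP-1 site TTAGTCA, or TGACTAA on the other strand, before tpx1, gst2, caf5 and obr1, and the heat shock element before ssa1. They are shown because the genes were called up and belong to groups that the factors Pap1 and Hsf1 are known to drive. Matches were looked up gene by gene in only part of the named genes, chiefly the largest changes, the defining members and the stress lists. Among those the AP-1 letters were also before abc1, upf1, pho842 and gas1, which were called down, and before pmd1 and bcp1, which were not called. Among the same genes, the heat shock element was also before ssa2, which was called up, and before adh1, which was not called.
tpx1, chrIII:2085880-2085909, minus strand: cgcctaattatTGACTAAgctcacttgctt
gst2, chrIII:2296194-2296223, minus strand: aaaatgggtgcTGACTAAcaattattacaa
caf5, chrII:3166467-3166496, plus strand: tctcacataatTGACTAAtcaatcaatata
obr1, chrI:2095128-2095157, minus strand: tttgaataggaTTAGTCAgaaatggttcaa
ssa1, chrI:2298001-2298030, minus strand: gggttggtGAAGGTTCGAGAAtggacaaag

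The CRE core letters were not found in the 250 bases before srx1, hsp9, tps1, pyp2, gpx1, ddr48 or lsd90, all called up, nor the heat shock element before hsp16, hsp104 or hsp78, which says only that these letters are not in this window. Of the genes up at least 8-fold, 20.6% had a CRE core between 50 and 100 bases before the start and 6.19% in the 50 bases next to it, against 2.15 and 1.30% of all genes. Among genes called down the share was at most 0.887% in any bin of 50 bases out to 500 bases.

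**Figure D2:**
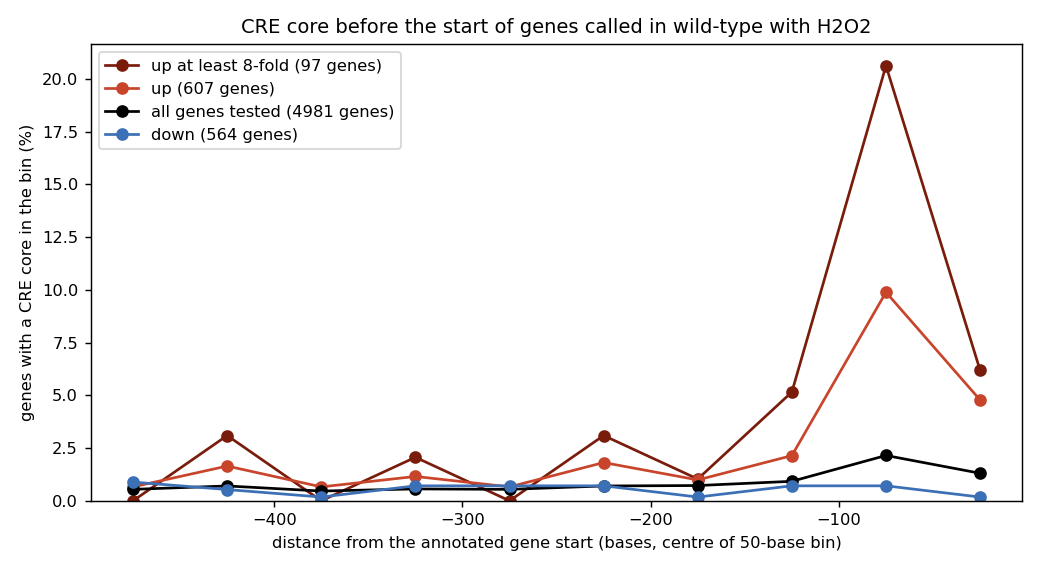
Share of genes with a CRE core in each bin of 50 bases before the annotated gene start (x axis, bases from the start; y axis, percent of genes), for genes called up at least 8-fold, all genes called up, all genes tested and genes called down. The share is highest between 50 and 100 bases before the start, at 20.6% of the genes up at least 8-fold and 9.88% of all genes called up, and is low and flat for genes called down.

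Gene lists of known function were drawn up to describe the response, and for each the number of members called is given beside the 12.2% up and 11.3% down of all genes. The lists with the largest shares of rises were small heat shock and DJ-1 proteins (7 of 8), trehalose and glycerol (8 of 11), peroxide and superoxide scavengers (7 of 10) and the Hsp70, Hsp90 and Hsp104 chaperones (10 of 19). Those with the largest shares of falls were ribosome biogenesis (86 of 151), flocculins (8 of 17), mitosis, septation and cell separation (17 of 41) and mating and meiosis regulators (10 of 27). Where no member of a list is said to have risen or fallen, neither limma, edgeR nor DESeq2 called any in that direction. Apart from the respiratory chain, at most 9 members of such a list lay in that direction at an unadjusted p under 0.05 in limma.

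**Figure D3:**
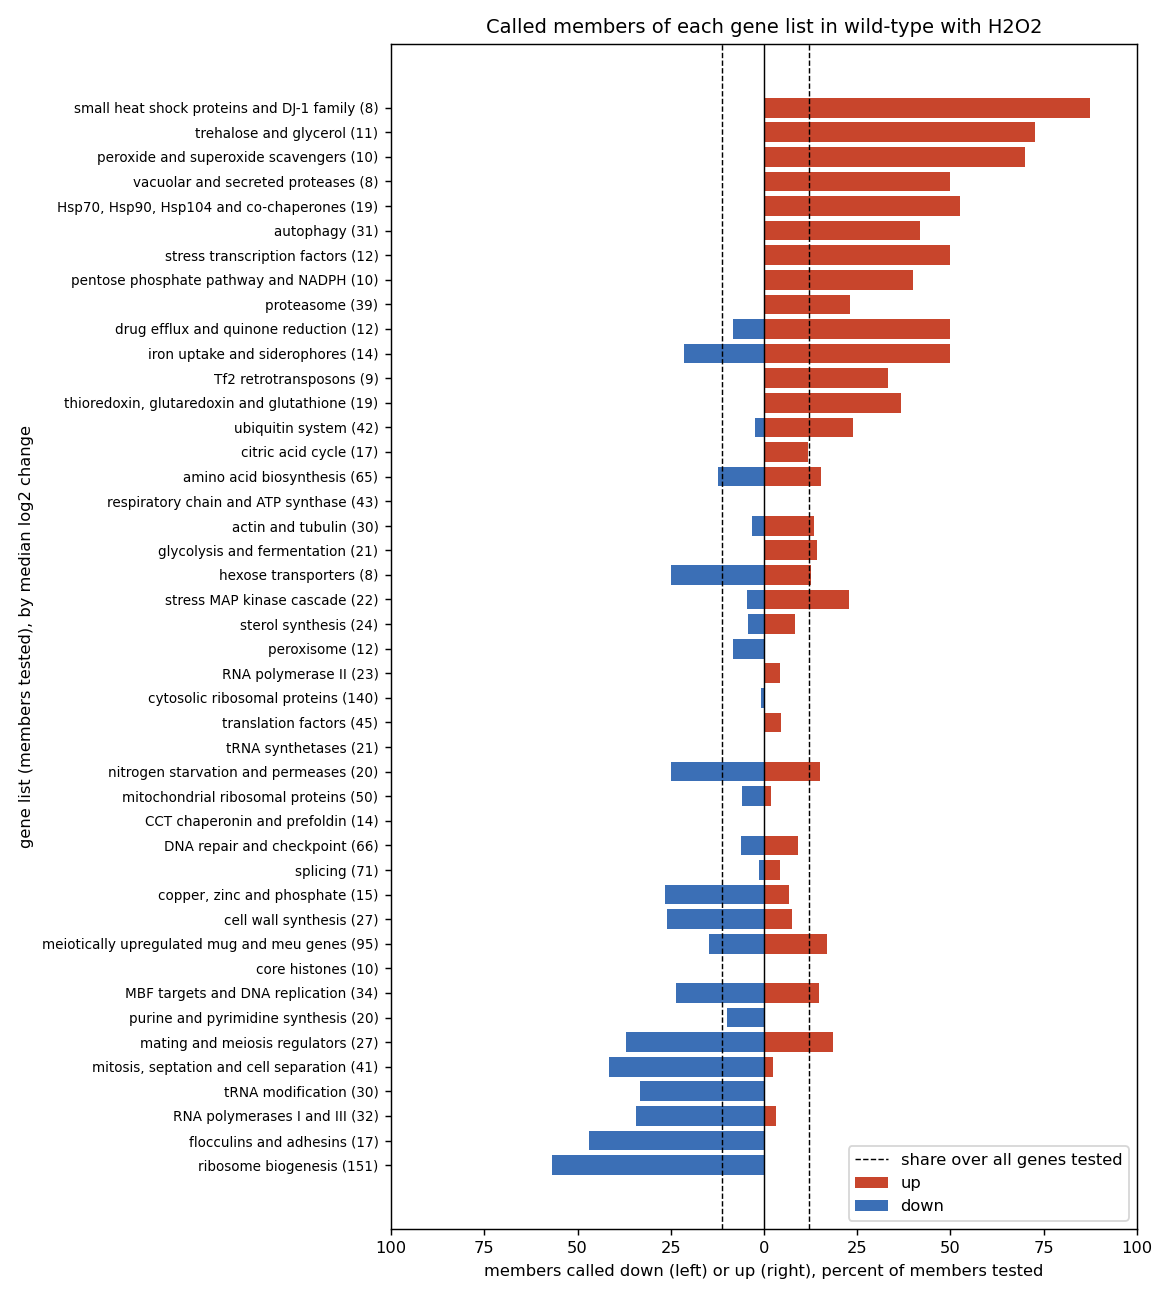
Percent of the tested members of 44 gene lists called up (red, right) and called down (blue, left) in wild-type cells with H2O2, ordered by the median log2 change of the list, with the number of members tested in parentheses. Dashed lines mark the shares over all genes tested, 12.2% up and 11.3% down. Lists at the top reach 87.5% up with no member down, and ribosome biogenesis at the bottom has 57.0% down with no member up.

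In the stress MAP kinase cascade, neither the MAP kinase gene nor wis1 and win1, of kinases above it, were called with the deposited size factors. Genes of phosphatases and of a kinase below it rose. Of 22 members tested, 5 rose and 1 fell, with a median log2 change of 0.35, which fell to -0.02 with equal totals. The MAP kinase gene sty1 had 4610 and 4463 normalized counts untreated and 7981 and 8193 treated (log2 0.83), short of the fold threshold. Of the kinase genes above it, wis1 (log2 -0.75) and win1 (log2 -0.61) were lower without passing that threshold. With equal totals wis1 was called down (log2 -1.12). By contrast srk1 rose from 1467 and 1351 to 20504 and 21150 (14.8-fold), and pyp2, a tyrosine phosphatase that inactivates Sty1, from 890 and 981 to 13152 and 11612 (13.2-fold). The serine/threonine phosphatase gene ptc1 rose 4.72-fold. The fall was in upf1, of nonsense-mediated decay (2.64-fold).

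Transcription factor genes of the stress response rose in 6 of 12 tested cases and fell in none, with a median log2 change of 0.92. Both partners at CRE sites rose, atf1 from 1381 and 1759 to 8612 and 7997 (5.32-fold, adjusted p = 1.9e-06) and pcr1 from 1323 and 1287 to 9698 and 8369 (6.90-fold). The heat shock factor gene hsf1 rose 2.95-fold and rsv2 4.02-fold. The peroxide factor genes pap1 (2804 and 3743 untreated, 5883 and 5217 treated, log2 0.77) and prr1 (log2 0.60) stayed below the fold threshold, although no treated library overlapped the untreated.

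Enzymes that remove peroxide and superoxide rose as a group, 7 of 10 members with none down and a median log2 change of 1.67, and the other 3 were also higher in both treated libraries. Sulfiredoxin, encoded by srx1, reduces the overoxidised peroxiredoxin Tpx1, and its transcript rose from 385 and 490 to 6072 and 7369 (15.4-fold, adjusted p = 1.5e-07). The catalase gene ctt1 rose from 4185 and 4476 to 50464 and 65380 (13.3-fold), and the glutathione peroxidase gene gpx1 from 4172 and 3776 to 49976 and 43175 (11.7-fold). Replicates of these genes lay close together compared with the change. The peroxiredoxin gene tpx1 rose from 14649 and 23822 to 51593 and 77288 (3.38-fold), while sod2, the manganese superoxide dismutase of mitochondria, rose 2.50-fold. The 3 without a call were sod1, the copper/zinc superoxide dismutase (log2 0.61), bcp1, a thioredoxin peroxidase (log2 0.77), and mxr1, a methionine sulfoxide reductase (log2 0.93). The list took 0.351 and 0.353% of reads before and 1.17 and 1.27% after treatment.

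The thioredoxin, glutaredoxin and glutathione systems, which return the reducing power, gave 7 rises of 19 members and no fall, with a median log2 change of 0.62. The glutathione S-transferase gene gst3 rose from 1236 and 1060 to 12274 and 12420 (10.8-fold) and the glutaredoxin gene grx1 from 3472 and 3471 to 17313 and 18830 (5.20-fold). The cytosolic thioredoxin gene trx1 rose 3.18-fold. The thioredoxin reductase gene trr1 had 7251 and 8339 untreated and 13649 and 21711 treated (2.21-fold), and without the second treated replicate it had a log2 change of 0.81 and no call. In gst2 the second replicate was the higher in both conditions, with 1994 and 5374 normalized counts untreated and 7273 and 20005 treated (log2 1.88, and between 1.15 and 2.61 with each wild-type library left out, called each time). Thioredoxin trx2 (log2 -0.32) and the transferase gst1 (log2 -0.06) were not called.

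Drug efflux and quinone reduction, where targets of Pap1 are found, had 6 rises and 1 fall among 12 members, with a median log2 change of 0.79. The AP-1 site was in 7 of the 12 promoters of this list (58.3%), against 4.48% of all promoters. Its presence did not follow the calls, since it was also before abc1 and pmd1. The ABC transporter gene pdr1 rose from 1178 and 1208 to 3661 and 4264 (3.31-fold), hmt1, a vacuolar transporter of phytochelatins, rose 2.82-fold and zta1, a quinone oxidoreductase, 2.76-fold. The treated replicates of caf5 lay further apart than its group means, and in obr1 the replicates of both conditions were widely spread. The efflux gene caf5 had 758 and 945 normalized counts untreated and 1151 and 2669 treated (log2 1.05), and the quinone reductase gene obr1 had 8346 and 18284 untreated and 20631 and 40771 treated (log2 1.23). Both lost their call without the second treated replicate, with log2 changes of 0.44 and 0.74, and without the first untreated replicate, with 0.89 and 0.67. The ABC transporter gene abc1 fell 2.57-fold, and pmd1, of leptomycin efflux, was lower without a call (log2 -0.36).

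Small heat shock proteins, which hold unfolded proteins in a soluble state, and DJ-1 family proteins, several of which are glyoxalases, had the largest median change of any list, 2.51 on the log2 scale, with 7 of 8 members up. The gene hsp16 rose from 1006 and 566 to 36157 and 30372 normalized counts (43.9-fold, adjusted p = 4.7e-07) and hsp3101, a DJ-1 family glyoxalase, from 540 and 567 to 24272 and 20582 (40.3-fold). The transcript of Hsp9, a heat shock protein of the plasma membrane, rose from 12547 and 9632 to 86424 and 74974. The glyoxalase gene hsp3103 was not called (575 and 526 untreated, 726 and 766 treated), and hsp3105 rose from 28.2 and 22.6 to 70.8 and 57.1.

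Large chaperones rose in part. Of 19 members of the Hsp70, Hsp90 and Hsp104 list 10 rose and none fell, with a median log2 change of 1.04, and the list went from 2.88 and 3.33% to 5.21 and 5.69% of reads. The Hsp70 gene ssa1 rose from 3149 and 5241 to 119821 and 147056 normalized counts (32.7-fold, adjusted p = 2.2e-06), and the disaggregases of the cytosol and mitochondria, hsp104 and hsp78, rose 14.6-fold and 10.7-fold. A second Hsp70 gene, ssa2, rose from 94134 and 132150 to 239592 and 290606 (log2 1.24), a change that stood at 1.00 and lost its call without the first untreated replicate. The Hsp90 gene (73900 and 92513 untreated, 139809 and 149663 treated), bip1 of the endoplasmic reticulum (log2 0.74) and mcp60 of mitochondria (log2 0.78) were below the fold threshold. Ribosome-bound chaperones were not called, sks2 having a log2 change of -0.32 and zuo1 one of -0.15. Of the CCT chaperonin and prefoldin, which fold newly made actin and tubulin, 0 of 14 members were called by limma, edgeR or DESeq2 and 2 had an unadjusted p under 0.05, with log2 changes between -0.35 and 0.27.

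**Figure D4:**
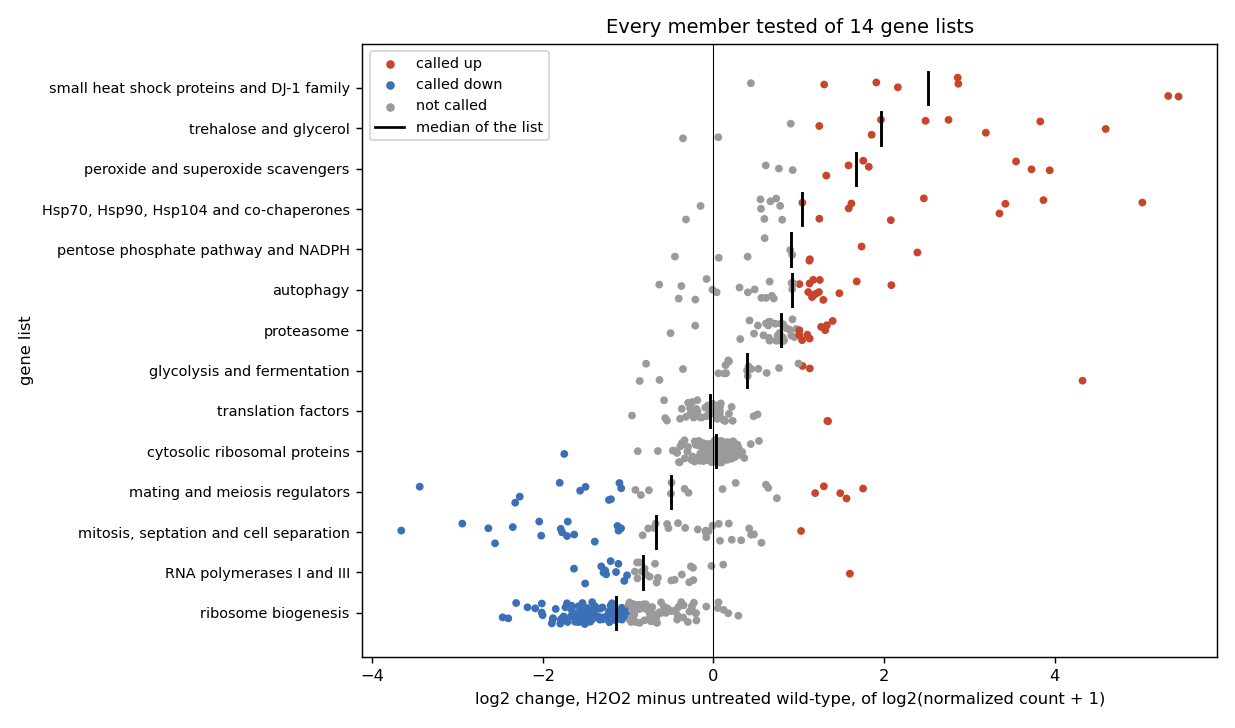
Log2 change of every tested member of 14 gene lists (x axis, treated minus untreated wild-type on the scale of log2(normalized count + 1)), red for called up, blue for called down and grey for not called, with a black bar at the median of each list. Ribosome biogenesis lies almost wholly below 0 while cytosolic ribosomal proteins cluster around 0, and the stress lists spread to the right. With equal totals every point lies 0.37 further to the left, which takes the medians of cytosolic ribosomal proteins below 0.

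Trehalose and glycerol, small molecules that protect proteins and balance osmotic pressure, formed the list with the second largest median, 1.97 on the log2 scale, with 8 of 11 members up and none down. The glycerol-3-phosphate dehydrogenase gene gut2, of the mitochondrial enzyme that degrades glycerol-3-phosphate, rose from 1511 and 1743 to 36777 and 42178 normalized counts (24.3-fold, adjusted p = 3.1e-08). The trehalase gene ntp1 rose from 1983 and 2520 to 31075 and 32677 (14.2-fold) and tps1, of trehalose-6-phosphate synthase, from 6462 and 6585 to 58286 and 61195 (9.15-fold). Genes of both the making and the breaking of trehalose were thus among those that rose. The cytosolic enzyme gene gpd1, which makes glycerol-3-phosphate, rose from 21441 and 20000 to 121162 and 111294 (5.61-fold), while gpd2 (log2 0.91), tps2 (log2 0.06) and dak2 (log2 -0.36) were not called. The list took 0.324 and 0.333% of reads before and 1.54 and 1.52% after treatment.

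NADPH for the antioxidant systems comes from the oxidative branch of the pentose phosphate pathway, and both of its major dehydrogenase transcripts rose. Zwf1, glucose-6-phosphate dehydrogenase, went from 6451 and 10122 to 38392 and 46872 normalized counts (5.25-fold) and gnd1, phosphogluconate dehydrogenase, from 21655 and 32937 to 81469 and 97297 (3.33-fold). In all, 4 of 10 members rose and none fell, with a median log2 change of 0.91, and 2 rose with equal totals. In the non-oxidative branch tal1, transaldolase, rose from 8782 and 11562 to 18589 and 26185 (2.19-fold), a call lost with equal totals (log2 0.76), without the first untreated replicate (0.93) and without the second treated replicate (0.88). Other members of that branch had log2 changes of 0.60 in tkt1 (transketolase), 0.06 in rpe1 and -0.45 in rki1, none of them called.

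Glycolysis and fermentation took 5.03 and 6.01% of reads untreated and 4.75 and 5.38% treated. The list had 3 rises of 21 members (14.3%), no fall and a median log2 change of 0.39. With equal totals it had 1 rise and 3 falls, and without the first untreated or the second treated replicate 2 rises and 2 falls. Of its enzymes, glyceraldehyde-3-phosphate dehydrogenase (tdh1, log2 0.44), pyruvate kinase (pyk1, log2 0.06) and alcohol dehydrogenase (adh1, log2 -0.36) were not called. The largest change was in eno102, an enolase gene, which rose from 97.0 and 57.5 to 1962 and 1176 (20.1-fold). Hexose transporters were divided, with 1 rise and 2 falls of 8. The glucose and fructose transporter gene ght2 rose from 4739 and 4280 to 18876 and 16381, whereas the high-affinity transporter genes ght5 (2641 and 5716 untreated, 639 and 1320 treated) and ght1 (58.0 and 96.1, against 15.2 and 14.9) fell. Of the 31-base words of ght1 and ght5, 14.6 and 45.7% occur in other genes, so reads may be split between copies. In the citric acid cycle mdh1, malate dehydrogenase, rose 5.82-fold and cit1, citrate synthase, 3.51-fold (11.8% of 17 members), and the other 15 were not called. None of 43 respiratory chain and ATP synthase genes passed the 2-fold threshold in limma, in edgeR or in DESeq2, with a median log2 change of 0.41, although 33 of them were higher in both treated libraries and 29 had a higher value at an unadjusted p under 0.05.

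Genes of protein breakdown were higher broadly but by small amounts. Of 39 proteasome genes 9 rose and none fell, yet 36 were higher in both treated libraries, and the median log2 change was 0.79. Among them rpt6 of the regulatory particle had 4956 and 5856 normalized counts untreated and 12847 and 15710 treated (2.64-fold) and the lid deubiquitinase gene rpn11 4222 and 3939, then 9188 and 11142 (2.48-fold). The number of proteasome genes called up was 1 with equal totals and 3 with equal upper quartiles, and 7 to 12 with a wild-type library left out. In the ubiquitin system 10 of 42 rose and 1 fell. The polyubiquitin gene ubi4 rose from 8948 and 12923 to 38436 and 39486 (3.62-fold), ubc6, a conjugating enzyme of the endoplasmic reticulum, 3.93-fold and cdc48, the segregase ATPase that extracts ubiquitinated proteins, 2.67-fold.

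Autophagy genes rose in 13 of 31 cases with no fall, at a median log2 change of 0.92. With equal totals 3 rose and 1 fell, and with equal upper quartiles 3 rose and none fell. The gene atg101, of the kinase complex that starts autophagy, rose from 220 and 229 to 1001 and 913 (4.25-fold), and atg8, whose product is joined to the growing membrane, from 784 and 662 to 1667 and 1550 (2.23-fold). The kinase gene atg1 was at log2 0.92, below the threshold, and atg12 was lower without a call (log2 -0.38). Of 8 vacuolar and secreted proteases 4 rose, with isp6, a vacuolar serine protease, at 3.75-fold and psp3 at 2.89-fold, and none fell.

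Metal handling changed in both directions. Of 14 iron uptake and siderophore genes 7 rose and 3 fell, with a median log2 change of 0.73. Those that rose included frp1, of the ferric reductase at the cell surface (952 and 1033 untreated, 5234 and 3503 treated), sib2, which makes the precursor of ferrichrome (7.84-fold), and php4, a repressor of iron-using genes that acts when iron is scarce (3.65-fold). Those that fell included pcl1, of an iron transporter, from 3278 and 3100 to 718 and 414 (5.84-fold) and the iron-sensing repressor gene fep1 (log2 -1.03), whose fall lost its call without the second replicate of either condition, at log2 changes of -0.97 and -0.83. The iron permease gene fip1 had 1852 and 1428 untreated and 2518 and 866 treated, its treated replicates lying on either side of the untreated. Among copper, zinc and phosphate genes the metallothionein gene zym1 rose from 351 and 326 to 6514 and 5341 (17.4-fold), while the copper transporter gene ctr4 fell 3.96-fold and the acid phosphatase gene pho4 3.82-fold. In the phosphate transporter gene pho84 the replicates were spread, with 7099 and 4356 untreated and 1623 and 3201 treated (log2 -1.29), and the call was lost without the first replicate of either condition (-0.93 and -0.80).

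The making of ribosomes showed the broadest fall. Of 151 ribosome biogenesis genes 86 fell and none rose, 146 were lower in both treated libraries, and the median log2 change was -1.14. The list took 3.31 and 3.20% of reads before and 1.22 and 1.38% after treatment. The RNA helicase gene dbp3 fell from 7407 and 8598 to 1389 and 1632 normalized counts (5.30-fold, adjusted p = 4.4e-07), rcm1, an rRNA methyltransferase, from 759 and 824 to 156 and 129 (5.55-fold), and sda1, of the large subunit pathway, from 3270 and 3500 to 571 and 811 (4.97-fold). Few members departed from the rest. The late assembly factor gene tif6 had 6587 and 7202 untreated and 8064 and 8831 treated (log2 0.29), rsa1 a log2 change of 0.17 and rsa3 one of 0.12, none of them called.

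RNA polymerases I and III, which transcribe rRNA, 5S rRNA and tRNA genes, fell with them. Of 32 members tested 11 fell and 1 rose, with a median log2 change of -0.82, while 7 fell without the first treated replicate and 22 with equal totals. The polymerase I subunit gene rpa34 fell from 1738 and 1570 to 524 and 539 (3.11-fold), rpc34 of polymerase III from 1514 and 1451 to 529 and 515 (2.84-fold), and rpc19, shared by both, 2.49-fold. The member that rose was maf1, the repressor of polymerase III, from 412 and 413 to 1323 and 1185 (3.03-fold, adjusted p = 1.8e-06). Of 30 tRNA modification genes 10 fell and none rose, led by deg1, a tRNA pseudouridine synthase (885 and 965 untreated, 181 and 200 treated). In contrast, of 23 genes of polymerase II and its general factors 1 rose, sua7 of TFIIB (2.34-fold), and none fell. The median of that list was 0.10, and -0.28 with equal totals, where none rose, 2 fell and sua7 had no call (log2 0.85). Leaving out the second untreated replicate gave 3 rises, and leaving out the first treated replicate 2.

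Structural genes of the ribosome did not follow its assembly factors. Of 140 cytosolic ribosomal protein genes none rose and 1 fell, rps1401, from 6358 and 4182 to 1541 and 1527 (3.36-fold), of whose words 24.9% occur in other genes. The median log2 change was 0.03, with quartiles of -0.11 and 0.14, and it turned negative, to -0.35, with equal totals. The share of reads on the list went from 21.4 and 19.8% to 16.2 and 16.6%, so that in proportion to all reads these transcripts were lower while in normalized counts they were level. The HomolD box CAGTCACA, known from promoters of S. pombe ribosomal protein genes, was in 137 promoters in all and in 63.6% of those of the list, and 3 of those 137 genes rose while 11 fell. Translation factors (2 of 45 up, none down, median -0.04) and tRNA synthetases (0 of 21 called by limma, edgeR or DESeq2, with 7 at an unadjusted p under 0.05, median -0.05) also had few calls, and both medians changed sign among the settings tried. The translation factor genes that rose were dom34 and hbs1, at 2.54-fold and 2.52-fold, whose products rescue stalled ribosomes. Both lost their call with equal totals (log2 0.97 and 0.96), where no member rose and 1 fell. The lowest log2 change of the list, -0.95 and without a call, was that of tif51 of eIF5A, with 36872 and 39042 untreated and 19402 and 19758 treated.

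**Figure D5:**
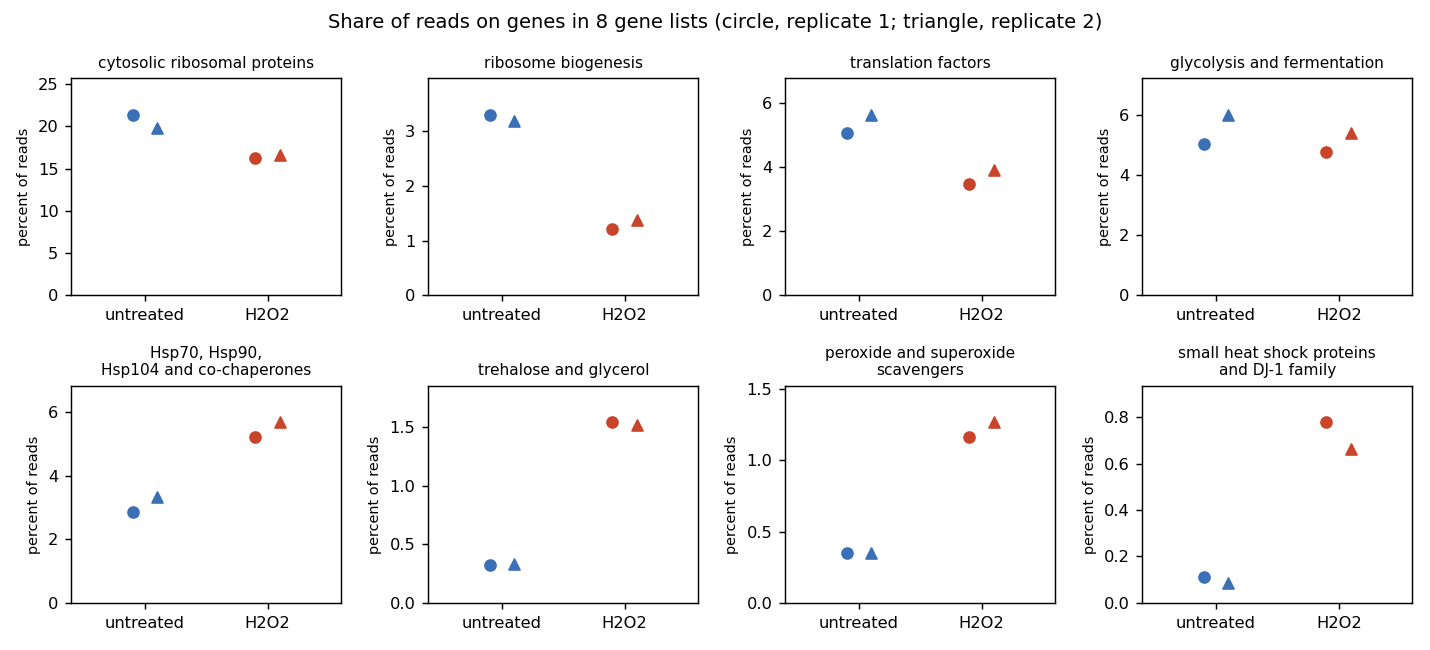
Percent of all reads on genes that fell on each of 8 gene lists in the 4 wild-type libraries, with circles for replicate 1 and triangles for replicate 2, untreated in blue and H2O2 in red, each axis starting at 0. Ribosome biogenesis drops from 3.31 and 3.20% to 1.22 and 1.38% and cytosolic ribosomal proteins from 21.4 and 19.8% to 16.2 and 16.6%, while the scavengers reach 1.17 and 1.27% and the chaperones 5.21 and 5.69%.

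Genes of mitosis, septation and cell separation fell in 17 of 41 cases and rose in 1, with a median log2 change of -0.68. The septum-cutting enzyme gene eng1 fell from 5848 and 5947 to 511 and 425 (12.6-fold). The gene of Slp1, the activator of the anaphase-promoting complex, fell from 2056 and 1810 to 312 and 305 (6.23-fold), and that of Cdc15, an F-BAR protein of the contractile ring, 3.29-fold. The cyclin-dependent kinase gene cdc2 was not called (1714 and 1510 untreated, 1650 and 1548 treated) and the septin gene spn1 was at log2 0.48 without a call. Which phases of the cycle the cells were in was not measured.

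Replication genes and targets of the MBF factor, which times transcription at the start of S phase, formed a list of 34. Of these 5 rose (14.7%) and 8 fell (23.5%), or 2 rose and 12 fell with equal totals. The licensing factor gene cdt1 fell 2.62-fold, the S-phase cyclin gene cig2 2.68-fold and the helicase subunit gene mcm6 2.88-fold. In the other direction cdt2, whose product directs the destruction of Cdt1 and Spd1, rose from 1018 and 948 to 3197 and 3397 (3.35-fold), and spd1, an inhibitor of ribonucleotide reductase, 3.0-fold. The MBF subunit genes cdc10 (2.17-fold) and res2 (2.50-fold) rose, although neither kept its call with equal totals (log2 0.74 and 0.95), and the reductase gene cdc22 was not called (log2 0.09). None of 10 core histone genes was called by limma, edgeR or DESeq2, and 6 had an unadjusted p under 0.05, 3 in each direction. The log2 changes of histone genes ran from -0.92 in hhf2 to 0.82 in hhf3, both of which encode histone H4. Other genes hold 14.5 and 16.3% of the words of hhf2 and hhf3, and the split of reads between copies is uncertain.

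Lists of cell wall and flocculin genes had more falls than rises. Among 27 cell wall genes 7 fell and 2 rose, and besides gas1 its paralogue gas5 and the glucan glucosidase gene exg1 fell, 3.50-fold and 3.48-fold. Another paralogue, gas2, in contrast, rose from 13862 and 14817 to 43196 and 42172 (2.98-fold) and exg3, also of a glucan glucosidase, from 957 and 998 to 6687 and 7501 (7.24-fold). Flocculins and their regulators fell in 8 of 17 cases and rose in none, with a median log2 change of -0.93, and 5 fell without the second untreated replicate. The flocculin gene pfl3 fell from 2864 and 2116 to 454 and 387, and lkh1, a LAMMER kinase involved in flocculation, from 1119 and 1108 to 289 and 195.

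Mating and meiosis regulators changed in both directions. Of 31 genes on the list 27 were tested, of which 10 fell and 5 rose, with a median log2 change of -0.50. Without the first untreated replicate 5 fell, and without the second treated replicate 6, while 3 rose and 13 fell with equal totals. Among the falls were ste11, from 622 and 394 to 38.1 and 52.2 (10.9-fold), mei2, the RNA-binding switch into meiosis, from 208 and 130 to 35.9 and 28.6 (5.01-fold) and ste6, an activator of Ras, 4.83-fold. Among the rises were rec8, of the meiotic cohesin, from 39.8 and 36.7 to 112 and 154, and mei4, a forkhead factor, from 106 and 157 to 324 and 409. The gene spo6 had a log2 change of -0.91 without a call in limma, and edgeR and DESeq2 called it down. Genes once named for their rise in meiosis, mug and meu, gave 16 rises (16.8%) and 14 falls (14.7%) of 95 tested, or 11 and 27 with equal totals. The sign of their median, -0.30, was not kept under every setting, which gave -0.67 to 0.04.

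Nitrogen starvation and permease genes were split as well, with 3 rises and 5 falls of 20. The arginase gene car1 rose 2.79-fold and cat1, a transporter of basic amino acids, from 1899 and 2883 to 7258 and 5353, while the ammonium transporter gene amt1 fell from 1030 and 1179 to 451 and 232, and ptr2 and isp5 were among the 12 largest falls. Amino acid biosynthesis had 10 rises (15.4%) and 8 falls (12.3%) of 65. Its median log2 change was 0.46, with a range of 0.09 to 0.72 over the settings. With equal totals 1 rose and 9 fell, and with equal upper quartiles 2 rose and 8 fell. Without the first untreated replicate 2 of them rose, without the second 18 rose and 5 fell, and without the first treated replicate 5 fell. Glutamine synthetase gene gln1 fell from 5592 and 7124 to 1184 and 1231 (5.23-fold). The aspartate kinase gene hom3 rose 2.68-fold, from 4797 and 8157 to 17515 and 16029. Purine and pyrimidine synthesis had 2 falls of 20 and no rise, with 4 falls when the second treated replicate was left out, none without the second untreated or the first treated replicate, and 5 with equal totals. Of 24 sterol genes erg32, a sterol desaturase (3.99-fold), and sre1, a sterol-responsive factor (2.85-fold), rose, and erg1, squalene monooxygenase, fell (2.61-fold).

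DNA repair and checkpoint genes gave 6 rises (9.09%) and 4 falls (6.06%) of 66, with a median log2 change of -0.10, and 13 falls with equal totals. Among the rises mag2, annotated as a DNA-3-methyladenine glycosylase, went from 11.6 and 11.3 to 154 and 301 (17.3-fold). The nucleotide excision repair genes rhp16 and rhp7 rose 3.39-fold and 3.25-fold. The Holliday junction resolvase gene eme1 fell from 346 and 412 to 63.2 and 68.3 (5.67-fold) and pku70, of the Ku end-binding complex, 2.34-fold. The checkpoint kinases moved apart without reaching the fold threshold, cds1 at a log2 change of 0.81 and chk1 at -0.93.

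Splicing genes had 3 rises and 1 fall of 71, and 1 rise without the second untreated replicate, but no rise and 6 falls with equal totals. Mitochondrial ribosomal protein genes had 1 rise and 3 falls of 50, with a median of -0.07 that ran from -0.44 to 0.02 over the settings. Peroxisome genes had no rise and 1 fall of 12, pex7, an import receptor, from 13481 and 10651 to 5073 and 3022. Actin and tubulin genes gave 4 rises (13.3%) and 1 fall (3.33%) of 30, with no rise under equal totals. Of them arp2 of the branching complex rose 2.49-fold and mto2, of the gamma-tubulin linker, fell 2.33-fold. Tf2 retrotransposons, all nearly identical copies, gave 3 rises of 9 in which the first treated replicate was the higher, as in Tf2-6 with 3079 and 5067 untreated and 11486 and 9004 treated, and reads cannot be assigned to a copy with certainty.

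Genes that rose shared features of structure and place that no rule used. Introns were annotated in 47.2% of tested genes, in 31% of those called up, in 19% of those up at least 4-fold and in 43.1% of those called down. The median coding length was 1146 bases over all genes, 1056 for genes called up, 978 for those up at least 4-fold and 1348.5 for those called down. Within 100 kb of a chromosome end lay 3.20% of all genes, 7.72% of those called up (47 of 609), 11.4% of those up at least 4-fold and 3.0% of those called down. The product was missing, uncharacterized or of unknown function for 79 genes called up and 44 called down. The share of such genes over all genes tested was not counted. On any list were 175 of the 613 genes called up, 210 of the 569 called down and 1425 of the 5019 tested. These are descriptions across genes, which share expression level, length and neighbourhood.

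Compared with Δtop1 cells given the same treatment, the response was alike in direction and differed in size for a minority of genes. Of the 613 genes up in wild-type cells, 607 were also higher and 498 called up in Δtop1, and of the 569 down, 558 were lower and 406 called down. The interaction of strain and H2O2 was called at an adjusted p under 0.1 for 199 genes (3.96%) in limma, 59 of them among the genes up in wild-type cells and 44 among those down. Among the 59, the rise was smaller in Δtop1 for 35 and larger for 24. These 59 were picked by their rise in wild-type cells, and the same values enter the interaction. That choice favours smaller rises in Δtop1, so the split cannot give a direction of the strain difference. Of the named genes, some chaperone genes had the smaller rise in Δtop1. For ssa1 the log2 change was 5.03 in wild-type cells and 3.03 in Δtop1 (interaction adjusted p = 0.070). For hsp16 it was 5.45 and 2.05 (interaction adjusted p = 0.0096). These chaperone genes were named by the size of their wild-type rise, so the same limit holds for them. Some antioxidant genes had the larger rise in Δtop1, as in ctt1 (3.73 and 5.48, adjusted p = 0.013) and trr1 (1.15 and 2.94, adjusted p = 0.031). Cytosolic ribosomal proteins had a median log2 change of 0.03 in wild-type cells and -0.46 in Δtop1, with 9 of 140 members called for the interaction.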

How the data were processed

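Fission yeast poly(A) RNA of 8 cultures was sequenced with a stranded kit as single reads of 50 bases. The authors deposited 1 table of normalized counts, a signal in which the reads on each gene are divided by a size factor of the library, with replicates kept apart. The paper's methods name Salmon and DESeq2 on the ASM294v2 transcriptome, while the submitters' processing notes name FastQC, Trimmomatic, STAR, HTSeq and DESeq2 on ASM294v2. Which counter made the table, and whether it used strand, is not settled by the sources used here, so reads shared by overlapping or near-identical genes may be split.

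In each wild-type library 99.98% of the deposited values gave a whole number of reads, within 0.01, when divided by the smallest step. The reads so recovered, without meu1-1, whose values were not whole, were used for edgeR 4.0.16 (quasi-likelihood) and DESeq2 1.42.0 as alternatives. For the main test, limma 3.58.1 (R 4.3.3) was run on log2(normalized count + 1) with 4 group means fitted to all 8 libraries, a variance trend and two-sided p-values, adjusted after Benjamini and Hochberg over the 5019 genes averaging 10 or more normalized counts. A change was called at an adjusted p under 0.1 and at least 2-fold, and the interaction of strain and H2O2 on its adjusted p alone. On simulated counts with 100 of 5018 genes changed 4-fold in the wild-type comparison, limma called 100 of the 100 and 3 unchanged genes. Genes changed 2-fold, at the calling threshold, were also simulated and are not in these counts. One spread was set for all genes, so the result does not carry over to genes with a wider spread.

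Genes named are the 12 largest rises and 12 largest falls with groups apart and a mean of at least 100 in the higher group, those the paper names around its RNA results, the 3 largest and 3 smallest changes in each list and its defining members. The gene lists, and the members named from them, were chosen with earlier results of these data known. By annotated product 46 entries were dropped and 19 added, but some members of other functions stayed, such as upf1, mxr1 and maf1. The pheromone gene mfm2 and the mating-type and auxotrophic markers were named after their values were seen. Promoter windows and sequences come from ASM294v3 in RefSeq, with gene identifiers matched by name and no coordinates carried between builds. Uncertain genes share over 10% of their 31-base words with another gene. Alternatives were pseudocounts of 0.5 and 5, no minimum or one of 50, equal totals or upper quartiles, both count tools, only wild-type libraries, the replicate block, limma's treat, an adjusted p under 0.05, no fold threshold, each wild-type library left out, and other promoter windows, of which the one of 500 bases was chosen after seeing the data. Counting intervals cover counting error only. Python 3.11.15 was used for tables and figures. Items withheld for evaluation are not reported here.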

Additional observations from a re-analysis of the deposited data

Results flagged for a closer look

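Among the genes named in the report, 16 responded to H2O2 differently in wild-type and Δtop1 cells by the interaction term of limma at an adjusted p under 0.1. Values below are the log2 change in Δtop1 minus that in wild-type cells, and where both rose or both fell the difference is one of size. Many of these genes were named for a large wild-type change, which favours smaller changes in Δtop1. No direction of the strain difference follows from them. Rises were smaller in Δtop1 for hsp16 (-3.40), ssa1 (-2.0), hsp78 (-1.53), hsp104 (-1.45) and rhp16 (-0.75). They were larger in Δtop1 for caf5 (2.54), hsp3105 (2.20), trr1 (1.80), ctt1 (1.75), srx1 (0.94) and hsp3103 (0.63), of which hsp3103 was not called in wild-type cells. Falls were smaller in Δtop1 for ptr2 (1.76), SPBPB7E8.01 (0.76) and mcm6 (0.68), and larger for gln1 (-0.76) and gas5 (-0.56). Of these, hsp104 lay closest to the threshold, at an adjusted p of 0.0995, and hsp16 farthest from it, at 0.00956.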

How the results depend on the processing

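The counts of 613 rises and 569 falls ran from 592 to 649 and from 563 to 585 when each wild-type library was left out, and were 593 and 596 in edgeR and 617 and 568 in DESeq2. With equal totals 403 rose and 1062 fell, and with equal upper quartiles 445 rose and 939 fell. Testing against 2-fold with treat gave 389 and 257, and no fold threshold 1826 and 1785. The replicate numbers are shared between groups, but only by 2 pairs, whose deviations from the group means correlated at 0.233. The fit with the replicate block gave 614 rises and 574 falls, and 879 genes in place of 199 for the interaction, which edgeR put at 192. No named gene with a call changed sign under any setting. With equal totals 16 named genes lost their call (atg8, arp2, caf5, cdc10, dom34, hbs1, hsp3105, obr1, res2, rpn11, sod2, ssa2, sua7, tal1, Tf2-6 and trr1) and 5 gained one, downwards (chk1, hhf2, spo6, tif51 and wis1). The same scaling gave 1 fall each in the stress transcription factors, the thioredoxin systems, tRNA synthetases, core histones and the respiratory chain, which had none, 3 falls in place of 1 in the peroxisome and in cytosolic ribosomal proteins, and 1 rise in place of 3 in Tf2. With a wild-type library left out, the respiratory chain had up to 2 rises and 1 fall and the core histones up to 1 fall. The signs of list medians were not kept under every setting for RNA polymerase II, Tf2, cytosolic and mitochondrial ribosomal proteins, mug and meu genes, peroxisome, sterol synthesis, the MAP kinase cascade, tRNA synthetases and translation factors.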
